A study of Mus musculus with 6 samples.

Results

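The miR-132 and miR-212 cluster gives 4 mature miRNAs, mmu-miR-132-3p, mmu-miR-132-5p, mmu-miR-212-3p and mmu-miR-212-5p, which are the 3p and 5p arms of 2 neighbouring hairpins. They were taken by name from the deposited read counts, and all 4 were found among the 1364 miRNAs listed. The counts come from small RNA libraries of the nucleus accumbens (NAc), a reward region of the ventral striatum, of adult male C57BL/6N mice aged 7 to 8 weeks that were trained in conditioned place preference (CPP). In the morphine group (3 libraries), sessions with 10 mg/kg intraperitoneal morphine alternated with saline sessions over 6 days, and in the saline group (3 libraries) the mice were conditioned with saline. Both groups were tested without drug on day 7, and the NAc was taken 0.5 h after the test. The sample records describe 6 mice in 3 libraries per group, whereas a figure legend of the study names 1 mouse per library.

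Both hairpins are processed from a single primary transcript. In neurons its transcription is raised by the factor CREB after synaptic activity, calcium entry or neurotrophin signals, which is why the cluster is widely used as a readout of neuronal activity. CREB signalling in the NAc is in turn known to respond to repeated opioids, and miR-212 has been studied in the striatum in relation to cocaine intake. The 3p arms are the better studied products, and the 5p arm of each hairpin carries a different seed and so would pair with other transcripts.

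The sequences are shown because the groups were separated by the balance between the arms of each hairpin. RefSeq (GRCm38.p6) places Mir212 at chr11:75173388-75173478 and Mir132 at chr11:75173682-75173747, both on the plus strand, with 203 bases between them. In the GENCODE vM21 annotation of GRCm38 both lie in the first intron of 1700016P03Rik, a non-coding transcript, between exon 1, which ends at 75172597, and exon 2, which starts at 75173978. The study's text and table name no genome build, so these positions belong to the annotation and not to the counts. In the mature sequences the capitals mark the seed, bases 2 to 8, through which a miRNA pairs with its targets. In the hairpins the capitals mark the 5p arm and then the 3p arm.
mmu-miR-132-3p: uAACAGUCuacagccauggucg
mmu-miR-212-3p: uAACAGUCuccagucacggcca
mmu-miR-132-5p: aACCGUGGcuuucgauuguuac
mmu-miR-212-5p: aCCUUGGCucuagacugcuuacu
Mir132 hairpin: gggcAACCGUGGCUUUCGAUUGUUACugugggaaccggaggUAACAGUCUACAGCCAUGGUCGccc
Mir212 hairpin: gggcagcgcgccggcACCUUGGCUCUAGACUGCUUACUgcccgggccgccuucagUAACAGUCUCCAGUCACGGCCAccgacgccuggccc

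The 3p arms form a single seed family. Their first 9 bases are the same, and 17 of 22 positions are identical over the whole length. No other mature miRNA among the 1679 names in the RefSeq table has this seed. The 5p arms match at 9 of 22 positions, and each has a seed that no other miRNA in that table has. GC content is 50.0% in miR-132-3p and 45.5% in miR-132-5p, and it is 54.5% in miR-212-3p and 47.8% in miR-212-5p, so the 3p arm is the richer in GC in both hairpins.

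The libraries held between 4183333 and 9842050 counts, and 3 counts correspond to between 0.305 and 0.717 CPM (counts relative to the library total, as parts per 1000000), a limit that covers counting error only. Saline replicate 2 stood apart from its group. Its highest Spearman correlation with another saline library was 0.874 and its lowest with a morphine library was 0.907, so results that rest on it are given with and without it. Markers of neurons (4 of 4 listed, none at 0 in any library) summed to between 61360 and 73270 CPM in the saline group and between 70320 and 106800 CPM in the morphine group. Oligodendrocyte markers (3 of 3) had summed levels of 1820 to 1903 CPM and 1572 to 1963 CPM, and those of microglia and white blood cells (4 of 4) had 15.6 to 60.6 CPM and 18.2 to 30.5 CPM. Erythroid markers (3 of 3, miR-144-3p at 0 in morphine replicate 2) had 207.6 to 311 CPM against 357.7 to 570.7 CPM. Endothelial markers (2 of 2) had 1485 to 5002 CPM against 10980 to 16260 CPM, and choroid plexus and ependyma markers (7 of 7, miR-34b-5p at 0 in saline replicates 1 and 3) had 1968 to 2772 CPM against 1016 to 1162 CPM. After TMM scaling the sums of the last 3 lists did not overlap between the groups, whereas with library totals the erythroid sums did overlap. Within most lists 1 member made up the sum and others went the other way. miR-128-3p made up most of the neuronal sum (log2 fold change 0.47, not called), while miR-124-3p met the study's criteria lower (-1.89) and miR-137-3p and miR-138-5p were at -0.24 and -0.32. The oligodendrocyte sum was mostly miR-219a-2-3p (0.015), while miR-219a-5p (-3.69) was called lower and miR-338-3p was at -0.31. miR-219a-5p had 426 counts in saline replicate 2 and at most 36 in any other library. The group difference in the erythroid sum followed miR-451a (1.57, called higher), with miR-144-3p at -1.31 and miR-486a-5p at -0.20. In saline replicates 1 and 3 miR-486a-5p was the larger part, at 235.2 and 194.0 CPM against 75.59 and 60.2 CPM for miR-451a. The endothelial sum was nearly all miR-126a-3p (2.42, called higher), and miR-126a-5p was at -0.96. The choroid plexus and ependyma sum followed miR-204-5p (-1.50, called lower), whereas miR-200a-3p (2.57), miR-200b-3p (1.84) and miR-429-3p (2.77) were called higher. The miRNAs called higher in this list had their highest levels in morphine replicate 1, at 123.2, 74.78 and 23.45 CPM in that order. In the other morphine libraries they had at most 22.3, 17.12 and 4.711 CPM, and the groups overlapped. The lists therefore do not show that any of these cell types differed, and their part in the results on miR-132 and miR-212 was not tested. In bulk tissue, fewer cells of a type and less RNA per cell cannot be told apart.

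The 4 arms did not show a common response to morphine conditioning. Compared with saline, the mean level after TMM scaling was higher for miR-132-5p and miR-212-3p and lower for miR-132-3p and miR-212-5p, and none of these differences passed the test. Each hairpin therefore had an arm with a higher mean and an arm with a lower mean in the morphine group. All levels below are CPM after TMM scaling unless library totals are named.

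miR-132-5p was the most abundant of the 4 and ranked 30 of 1364 by its mean share of the libraries. It was at 5596, 2770 and 4025 CPM in saline replicates 1, 2 and 3 and at 4596, 6934 and 7837 CPM in morphine replicates 1, 2 and 3. The groups overlapped, since saline replicate 1 was above morphine replicate 1. The log2 fold change was 0.64 (SE 0.46, 95% interval -0.31 to 1.596), with an adjusted p of 0.492 in the quasi-likelihood test of edgeR (Benjamini-Hochberg).

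miR-132-3p, the arm best known for its targets in neurons, ranked 55. Its level was 3111, 1387 and 3095 CPM in the saline libraries and 1795, 2220 and 2534 CPM in the morphine libraries. Saline replicates 1 and 3 were above every morphine library and saline replicate 2 was below every one of them. The log2 fold change was -0.21 (SE 0.47, 95% interval -1.18 to 0.75, adjusted p = 0.80 with edgeR). Its sign rested on single libraries. Without saline replicate 1 or 3 the value was 0.06 or 0.02, and without morphine replicate 1 it was -0.00096. Without saline replicate 2 it was -0.51 (adjusted p = 0.0895 with edgeR).

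miR-212-5p, which ranked 109, was at 745.7, 690.9 and 693.9 CPM in the saline libraries and at 510.3, 561.9 and 531.2 CPM in the morphine libraries. Every morphine library was below every saline library, with means of 710.2 ± 30.8 and 534.5 ± 26.0 CPM (SD, n = 3). This separation was also present with library totals in place of TMM, although saline replicate 2 then stood close to the morphine libraries, at 553 CPM against 974 and 917 CPM in the other saline libraries and 469, 526 and 447 CPM in the morphine libraries. The log2 fold change was -0.41 (SE 0.44, 95% interval -1.32 to 0.50, adjusted p = 0.584 with edgeR), so the difference did not pass the test, which uses a spread moderated over all miRNAs.

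miR-212-3p was the least abundant, ranking 192. It was at 110.2, 104.5 and 128.6 CPM in the saline libraries and at 138.6, 176.0 and 230.2 CPM in the morphine libraries. Every morphine library was above every saline library after TMM scaling, with means of 114.4 ± 12.6 and 181.6 ± 46.1 CPM (SD, n = 3). With library totals the groups overlapped, at 144, 83.6 and 170.0 CPM against 127, 165 and 194 CPM. The log2 fold change was 0.67 (SE 0.47, 95% interval -0.30 to 1.64, adjusted p = 0.478 with edgeR). It was 0.60 when saline replicate 2 was left out, which met the study's criteria (|log2 fold change| ≥ 0.58, unadjusted p ≤ 0.05). The adjusted p was then 0.1095 with edgeR. In that fit 20.9% of all miRNAs met the same criteria in the same direction.

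**Figure D1:**
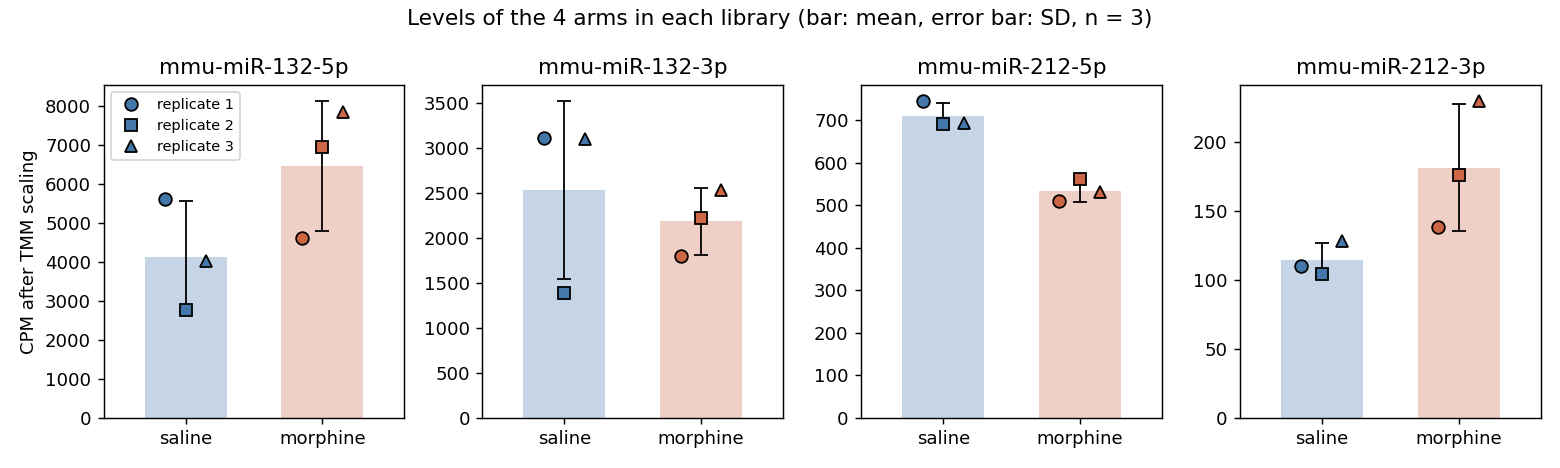
Level of each arm in CPM after TMM scaling (y axis, linear, from 0) in the saline and morphine groups; points are libraries with the symbol giving the replicate number, bars are means and error bars SD (n = 3). miR-212-5p is lower and miR-212-3p higher in every morphine library than in every saline library, while the groups overlap for both miR-132 arms.

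With all 6 libraries, 0 of the 4 arms met the study's criteria, against 19.4% of all 1364 miRNAs in either direction, and 0 of 4 had an adjusted p under 0.05, against 5.21% of all miRNAs. The study's cut-offs were applied here to the edgeR fit, so these counts are not the study's own calls. The unadjusted p in edgeR lay between 0.17 and 0.65, so 0 of 4 were under 0.05 without adjustment, and by both rules the count was also 0 with DESeq2 and with the exact test of edgeR. Values did not overlap between the groups for 1 arm in the higher direction, where the share over all miRNAs was 12.2%, and for 1 arm in the lower direction, where it was 9.90%. With library totals the arm in the lower direction, miR-212-5p, was the only one of the 4 left, beside 10.6% of all miRNAs. The 95% intervals of the 4 fold changes include both no difference and changes that would meet the study's threshold. The data therefore do not show that the levels were equal. Scaling by library totals or by the upper quartile moved the median log2 fold change of all miRNAs by -0.25 or -0.20, and the 4 arms moved down with it, to between -0.76 and 0.29 with library totals. Relative to that median, miR-132-3p, miR-132-5p, miR-212-3p and miR-212-5p stood at -0.06, 0.79, 0.82 and -0.26 with TMM and at -0.26, 0.62, 0.69 and -0.36 with library totals. Of the miRNAs that met the study's criteria, 50.0% were higher in the morphine group with TMM and 34.9% with library totals.

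**Figure D2:**
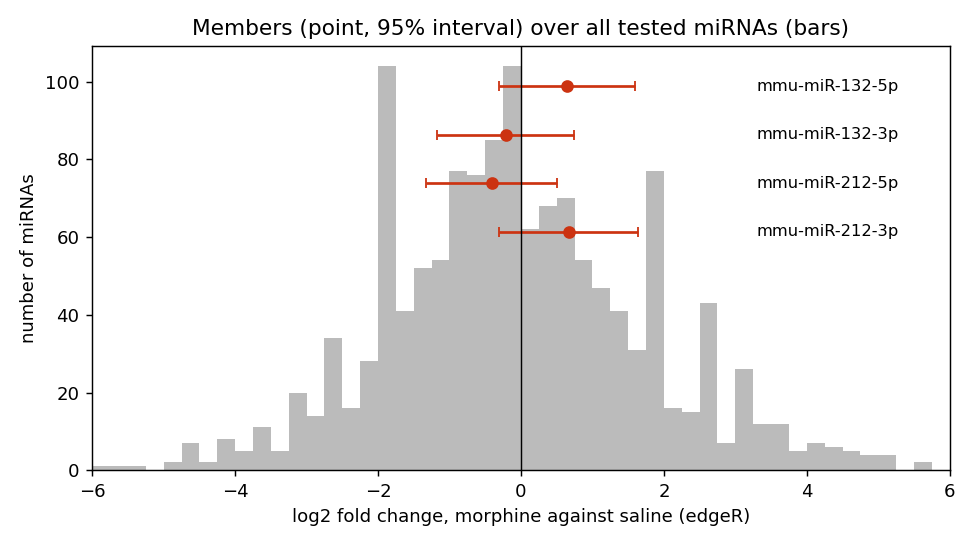
Histogram of the log2 fold change (morphine against saline, x axis) of all 1364 miRNAs tested, with the number of miRNAs on the y axis and 2 miRNAs beyond the plotted range; red points with bars are the 4 arms with their 95% intervals, placed at arbitrary heights. Each interval crosses 0, and the 2 arms of a hairpin lie on opposite sides of it.

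Summed over the cluster, the 4 arms took 1.25%, 0.396% and 1.05% of all reads counted in saline replicates 1, 2 and 3 and 0.647%, 0.926% and 0.937% in morphine replicates 1, 2 and 3. The share was lowest in saline replicate 2 and highest in saline replicate 1, so the saline libraries enclosed all morphine libraries. The means of 0.898% ± 0.446 and 0.837% ± 0.165 (SD, n = 3) differed by less than the spread between replicates (two-sided exact permutation test, p = 0.8). Without saline replicate 2 both other saline libraries were above all morphine libraries (two-sided exact permutation test, p = 0.2, the smallest that 2 against 3 libraries allow), whereas without saline replicate 1 or 3 the morphine mean was the higher. The level of the shared 3p seed, summed over miR-132-3p and miR-212-3p, was 2645 ± 999 CPM in the saline group and 2364 ± 416 CPM in the morphine group (SD, n = 3, two-sided exact permutation test, p = 0.6). It was 3221, 1492 and 3224 CPM in saline replicates 1, 2 and 3, against 1934, 2396 and 2764 CPM in the morphine group, so saline replicate 2 was again the lowest of all and the other saline libraries the highest (p = 0.2 without it, same exact test). The 5p arms together were at 4841 ± 1444 and 6990 ± 1689 CPM (SD, n = 3, two-sided exact permutation test, p = 0.2). The groups overlapped, with saline replicate 1 at 6342 CPM and morphine replicate 1 at 5106 CPM. Without saline replicate 2 the saline mean of the 5p arms was 5531 CPM (p = 0.4, same exact test).

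The ratio of the arms within a library does not depend on how libraries are scaled against each other, and it separated the groups for both hairpins. For both, the 5p arm had more counts than the 3p arm in all 6 libraries, which held for 57 of the 142 hairpins (40.1%) with at least 100 counts in total on each arm. Counts of different arms also carry the adapter ligation preference of each sequence, so a ratio is compared between libraries and is not a ratio of molecules.

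miR-132-3p made up 35.7%, 33.4% and 43.5% of the miR-132 counts in saline replicates 1, 2 and 3 and 28.1%, 24.3% and 24.4% in morphine replicates 1, 2 and 3. All morphine libraries were lower than all saline libraries, saline replicate 2 included. The log2 ratio of the 3p to the 5p arm was -0.74 ± 0.32 in the saline group and -1.54 ± 0.16 in the morphine group (SD, n = 3), a difference of -0.80 or 0.574 times the saline ratio.

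For miR-212 the shift had the opposite direction. miR-212-3p made up 12.9%, 13.1% and 15.6% of the miR-212 counts in saline replicates 1, 2 and 3, compared with 21.4%, 23.9% and 30.2% in morphine replicates 1, 2 and 3. The log2 ratio of the 3p to the 5p arm was -2.64 ± 0.18 in the saline group and -1.59 ± 0.35 in the morphine group (SD, n = 3), a difference of 1.05 or 2.07 times the saline ratio.

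The balance between the hairpins differed with the arm considered. Within the 3p seed family, miR-132-3p had 28.2, 13.3 and 24.1 times the counts of miR-212-3p in the saline libraries and 13.0, 12.6 and 11 times in the morphine libraries. miR-212-3p thus supplied 4.81% ± 1.93 of the family's counts in the saline group and 7.61% ± 0.625 in the morphine group (SD, n = 3). Saline replicate 2, at 7.01%, was close to morphine replicate 1, at 7.17%. Among the 5p arms the ratio of miR-132-5p to miR-212-5p was 7.504, 4.01 and 5.80 in saline replicates 1, 2 and 3, against 9.01, 12.3 and 14.8 in morphine replicates 1, 2 and 3. With both arms summed, the ratio of miR-132 to miR-212 was 10.2, 5.23 and 8.66 against 9.85, 12.4 and 13.6, and the groups overlapped.

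**Figure D3:**
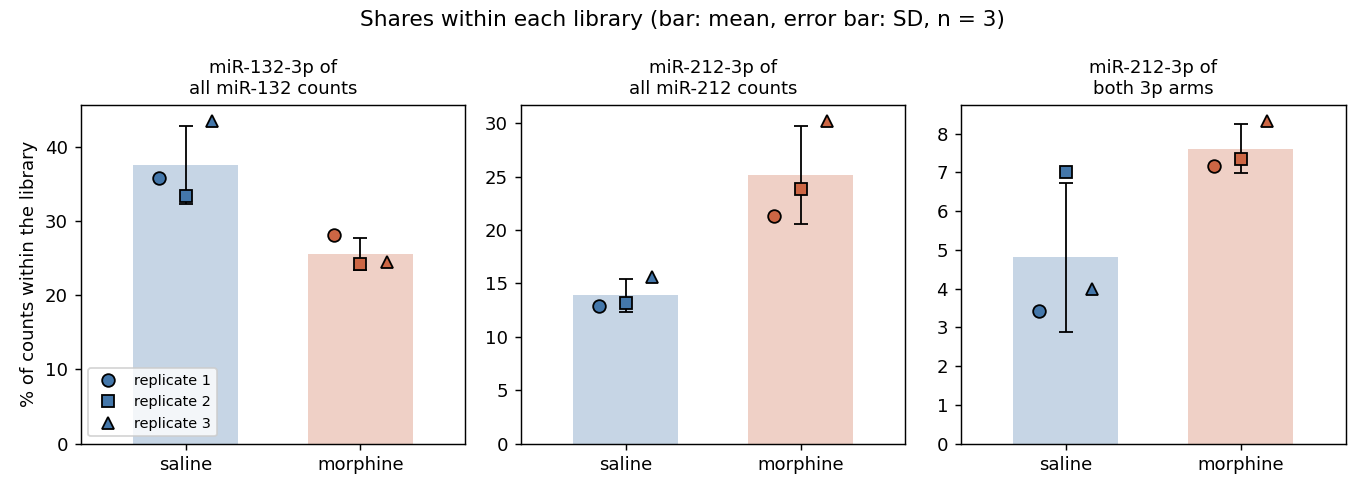
Share of counts within each library (y axis, %, from 0) for miR-132-3p among miR-132 counts, miR-212-3p among miR-212 counts and miR-212-3p among both 3p arms; points are libraries, bars are means and error bars SD (n = 3). The 3p share is lower in all 3 morphine libraries for miR-132 and higher in all 3 for miR-212.

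In all, 5 such ratios were compared, and the last 2 single-arm ratios were added after the values of the arms were seen. The 4 ratios of single arms had p = 0.1 in two-sided exact permutation tests, which is the smallest value that 3 libraries against 3 allow, and 0.125 after Benjamini-Hochberg adjustment. The ratio of summed arms had p = 0.2 in the same exact test, and also 0.2 after adjustment. The arm ratios were therefore also tested with limma on all 142 hairpins, an addition made after seeing the data. The difference in log2 ratio was -0.80 (SE 0.32, 95% interval -1.59 to -0.017, adjusted p = 0.118 with limma) for miR-132 and 1.05 (SE 0.33, 95% interval 0.249 to 1.85, adjusted p = 0.0646 with limma) for miR-212. Both had an unadjusted p of at most 0.05 in limma, as did 40.1% of the hairpins, and neither had an adjusted p under 0.05, which 21.1% of the hairpins had. Without saline replicate 2 both did, at 0.0190 and 0.0224 with limma, when 63.8% of 130 hairpins did so.

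Shifts in arm ratio of this size were common in these libraries. The groups did not overlap in the higher direction, as for miR-212, in 25.4% of the hairpins and in the lower direction, as for miR-132, in 20.4%. The absolute difference in log2 ratio had a median of 1.11 over the 142 hairpins, and 86 of them exceeded miR-132 and 74 exceeded miR-212. The hairpins may not all be separate measurements, as miR-338-3p and miR-3065-5p, listed under different hairpins, had identical counts in every library. Across the 117 hairpins with both mature sequences in RefSeq, the difference had a Spearman correlation of -0.267 with the GC content of the 3p arm minus that of the 5p arm. These points share the same 6 libraries, and the part of GC content in the results was not tested.

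**Figure D4:**
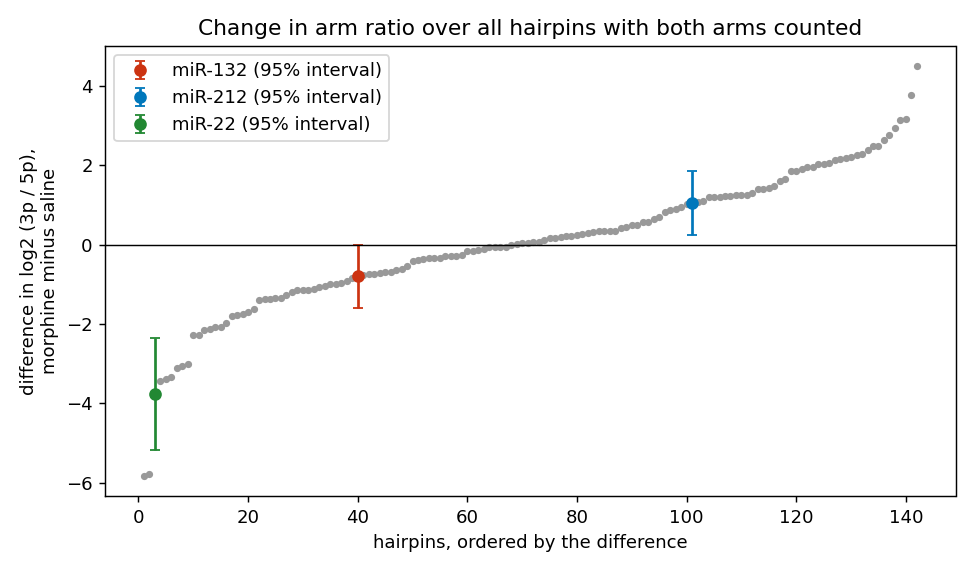
Difference between the groups in the log2 ratio of the 3p to the 5p arm (y axis, morphine minus saline) for 142 hairpins in order of that difference (x axis, rank); coloured points with bars give miR-132, miR-212 and the neighbouring miR-22 with 95% intervals from limma. miR-132 at -0.80 and miR-212 at 1.05 lie within the range of the grey points on either side of 0.

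Across the 6 libraries the pair of arms with the highest correlation came from different hairpins. The Pearson correlation of log2(CPM + 1) was 0.81 between miR-132-5p and miR-212-3p, against 0.53 between miR-132-5p and miR-132-3p and -0.76 between miR-212-3p and miR-212-5p. With library totals these values were 0.89, 0.75 and 0.082, so the value for the arms of miR-212 was negative with TMM and near 0 with library totals, the scalings for which it was computed. Without saline replicate 2 the highest value was that of another pair, miR-132-3p and miR-212-5p (0.88). The value was then 0.76 for miR-132-5p and miR-212-3p, -0.10 for the arms of miR-132 and -0.72 for the arms of miR-212. The positive value for the arms of miR-132 thus rested on saline replicate 2. All these correlations are given as descriptions over at most 6 libraries that share depth and composition.

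Among the 209 other miRBase miRNAs with a mean of at least 100 CPM, the 5 whose pattern was most like that of miR-132-3p were miR-485-3p (Pearson's r = 0.98 over 6 libraries), miR-106b-3p (0.98), miR-1843b-3p (0.97), let-7d-3p (0.97) and miR-383-5p (0.97). Like miR-132-3p, all 5 were lowest in saline replicate 2. miR-485-3p, for example, was at 1199, 215 and 1141 CPM in the saline libraries and at 366, 513 and 571 CPM in the morphine libraries. The 3 least alike were miR-338-3p, miR-3065-5p and miR-344-3p, each at r = -0.97, and they were highest in saline replicate 2. miR-338-3p and miR-3065-5p had identical counts in every library, so they may not be separate measurements. With library totals 4 of the 5 most alike were the same, and over the 5 libraries other than saline replicate 2 only 2 were, so the order rested on that library.

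The nearest other miRNA gene with appreciable counts is Mir22, whose mature arms start about 290 kb downstream on chromosome 11, miR-22-5p at 75463734 and miR-22-3p at 75463772. miR-22-3p fell in the morphine group, from 1617, 8638 and 2435 CPM in the saline libraries to 277.3, 287.5 and 328.4 CPM in the morphine libraries (log2 fold change -3.83, SE 0.54, adjusted p = 0.000841 with edgeR). miR-22-5p, from the same hairpin, was at 103.1 ± 13.4 and 129.1 ± 27.3 CPM (SD, n = 3, log2 fold change 0.32, SE 0.47, adjusted p = 0.701 with edgeR). The arms of miR-22 thus also had fold changes of opposite sign, and the difference in their log2 ratio, -3.76 (SE 0.58, adjusted p = 0.00734 with limma), was beyond that of miR-132. Without saline replicate 2, where miR-22-3p was highest, the difference for miR-22 was -3.16 (adjusted p = 0.0004 with limma). Of the other listed miRNAs within 1 Mb, miR-6926-5p and miR-6926-3p had at most 3 counts in any library.

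The response of other miRNAs described as regulated by neuronal activity was mixed. Of 20 such miRNAs, all of them listed, 9 met the study's criteria, 4 higher and 5 lower in the morphine group, against 9.68% of all miRNAs in each direction. At an adjusted p under 0.05 there was 1 higher and there were 5 lower, against 3.08% and 2.13% of all miRNAs. All miRNAs here are those with at least 1 count in total, so the shares are not matched to the list for abundance. The list was drawn up from general knowledge of neuronal miRNAs, and it was chosen with earlier results of these data known. The median log2 fold change of the list was -0.08, and that of all miRNAs was -0.15. Without saline replicate 2, 11 were higher and 5 lower by the same criteria, where the shares over all miRNAs were 20.9% and 16.1%.

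The lower miRNAs of this list included miR-124-3p, the abundant neuronal miRNA that represses non-neuronal transcripts, at 5796 ± 1758 and 1569 ± 216 CPM (SD, n = 3, log2 fold change -1.89). miR-485-5p, which is known to restrain synapse development, was at 1080 ± 581 and 286 ± 60.9 CPM (SD, n = 3, log2 fold change -1.92). The others were miR-125b-5p, miR-181a-5p and miR-191-5p, with log2 fold changes of -1.77, -1.58 and -1.55. The 5 adjusted p-values were between 0.0195 and 0.0437 with edgeR. Calls at an adjusted p under 0.05 depended on single libraries, as 6 of the 20 passed with all libraries, 0 without morphine replicate 1, 15 without saline replicate 2 and 1 with the replicate number as a block. miR-485-5p is the other arm of miR-485-3p, the miRNA most like miR-132-3p, and miR-485-3p itself differed by -0.82 on the log2 scale (SE 0.54, adjusted p = 0.462 with edgeR).

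Among the higher miRNAs, miR-146a-5p, a regulator of inflammatory signalling, rose from 197.7 ± 49.9 to 966 ± 116 CPM (SD, n = 3, log2 fold change 2.29, adjusted p = 0.00582 with edgeR). miR-381-3p, from the imprinted cluster that also encodes miR-134, was at 7259 ± 3680 and 22100 ± 3357 CPM (SD, n = 3, log2 fold change 1.61, adjusted p = 0.0504 with edgeR). miR-182-5p and miR-96-5p, which are transcribed together, had log2 fold changes of 1.87 and 2.40, with 1654 of the miR-182-5p counts and 331 of the miR-96-5p counts in morphine replicate 1, where the other morphine libraries had at most 267 and 40. miR-134-5p, a regulator of dendritic spine size, was at 328.6 ± 114 and 190.3 ± 15.3 CPM (SD, n = 3, log2 fold change -0.79, adjusted p = 0.40 with edgeR). The 3 most abundant of the list were miR-9-5p, miR-26a-5p and miR-125b-5p, of which miR-9-5p, at a log2 fold change of -0.155 (SE 0.51), and miR-26a-5p, at -0.75 (SE 0.45), did not pass the test. The fold changes of the 4 arms of miR-132 and miR-212, between -0.41 and 0.67, lay inside the range of this list, -1.92 to 2.40. That range is set by the extremes of the list, and miR-96-5p at its upper end had most of its counts in morphine replicate 1. Lying inside it therefore does not show that the arms behaved like the list.

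**Figure D5:**
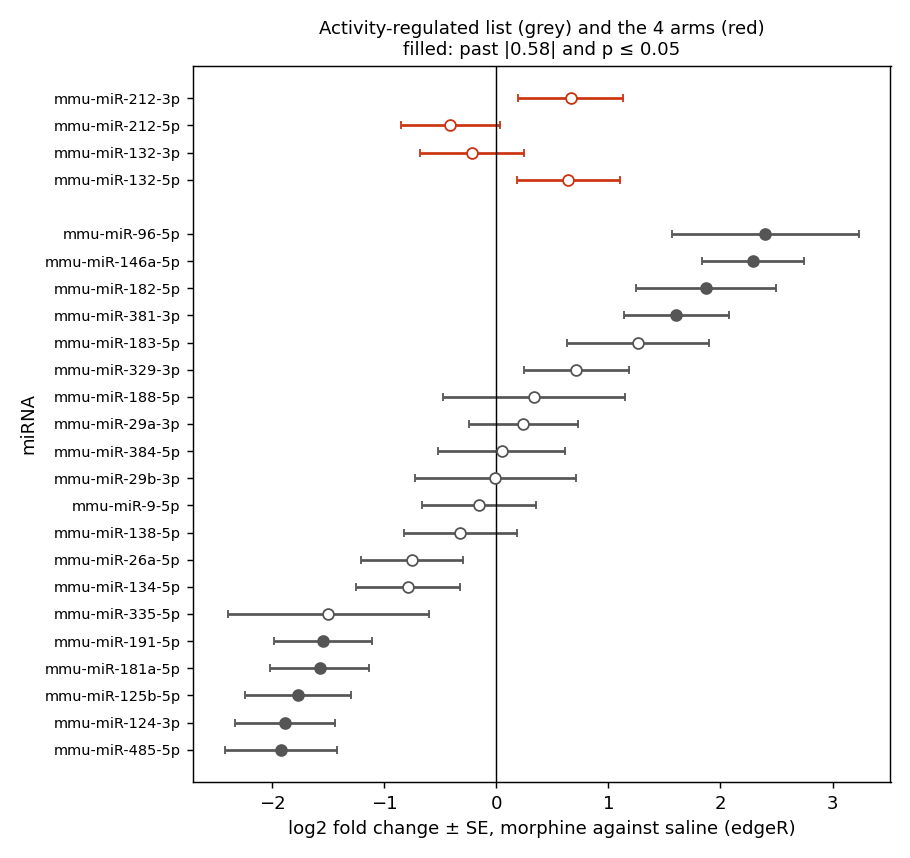
Log2 fold change with its SE (x axis, morphine against saline) of the 20 other activity-regulated miRNAs in grey and of the 4 arms in red (y axis, miRNA names); filled points met the study's criteria (|log2 fold change| ≥ 0.58, unadjusted p ≤ 0.05). Of the grey points, 9 are filled, 4 to the right and 5 to the left of 0, and all 4 red points are open.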

How the data were processed

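Small RNA libraries of the NAc (3 saline, 3 morphine) were compared. The authors ligated adapters to 3 μg of total RNA, kept reads of 15 to 35 nt after trimming and quality filtering, filtered out rRNA, tRNA, other ncRNA and repeats with Bowtie, and compared the rest with miRBase. The deposited counts are raw reads per mature miRNA, and the deposited TPM values are those counts scaled to the library total, with no length term; TPM was not used in a test. The genome build, the miRBase release and the counting tool are not given in the sources used here. Groups and replicate numbers came from the sample titles. The number of mice behind a library is stated in different ways, so p-values measure only the spread between these libraries. Columns not used: 0.

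Counts were scaled by TMM, and edgeR 4.0.16 (quasi-likelihood, R 4.3.3) was run on all 1364 miRNAs with at least 1 count, and p-values were adjusted over all of them (Benjamini-Hochberg). Standard errors and 95% intervals came from the fitted model with the moderated spread. Ratios used counts + 0.5 and two-sided exact permutation tests (scipy 1.17.1), and arm ratios of all hairpins were tested with limma 3.58.1. The scripts were tested on simulated data. The members and lists were chosen with earlier results of these data known. Named are the 4 arms, listed miRNAs within 1 Mb, members of the activity-regulated list that met a criterion plus its 3 most abundant, and the 5 most and 3 least like miR-132-3p. miR-134-5p and miR-485-3p's fold change were added after their values were seen. Alternatives were other scalings (relative log expression, library total, upper quartile), DESeq2 1.42.0, the edgeR exact test, filters on low counts, miRBase names only, removal of the 10 most abundant miRNAs, the replicate block and leaving out each library.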

Additional observations from a re-analysis of the deposited data

How the results depend on the processing

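Over 16 alternatives each, the log2 fold change lay between 0.22 and 1.03 for miR-132-5p, between 0.29 and 0.92 for miR-212-3p and between -0.76 and -0.27 for miR-212-5p, with the sign kept. For miR-132-3p it lay between -0.66 (library totals) and 0.06. Leaving out each library gave -0.51 to 0.06 for miR-132-3p, with a sign change without saline replicate 1 or 3 and -0.00096 without morphine replicate 1. It gave 0.46 to 0.92 for miR-212-3p, which met the study's criteria without saline replicate 2 (0.60). The number of arms meeting them was accordingly 0 to 1 when a library was left out, and 0 in the other alternatives. At an adjusted p under 0.05 it was 0 in all 16. With library totals 0 arms, against 1, were higher without overlap. Leaving out each library moved the difference in the summed share (morphine minus saline) between -0.313 and 0.114 percentage points, with the sign changed without saline replicate 1 (0.114) or 3 (0.0141) or morphine replicate 1 (0.0333). That of the summed 3p arms moved between -857.8 and 8.20 CPM, positive without saline replicate 1 (6.69) or 3 (8.20), and that of the 5p arms stayed positive. These were added after seeing the data. The 5 ratio differences kept their sign in all 9 alternatives each. The adjusted p with limma was 0.0190 to 0.324 for miR-132 and 0.0224 to 0.210 for miR-212.

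Same-numbered libraries had deviations that correlated at -0.23, -0.285 and 0.139, so the numbers were not taken as pairs. With the replicate block the log2 fold changes were -0.14, 0.67, 0.64 and -0.41 for miR-132-3p, miR-132-5p, miR-212-3p and miR-212-5p, and no call on the 4 arms changed. Over all miRNAs the count at the study's criteria was 264, and 492 without saline replicate 2. The count at an adjusted p under 0.05 was 71 with TMM, 160 with library totals, 153 with upper quartile scaling, 156 with DESeq2, 28 with a minimum of 10 counts, 110 with miRBase names only, 32 with the replicate block, and 0 to 386 when a library was left out (0 without morphine replicate 1, where 176 met the study's criteria, and 386 without saline replicate 2). Of the 20 activity-regulated miRNAs, 6 had an adjusted p under 0.05, against 1 with the replicate block, 3 with the minimum of 10 counts, 0 without morphine replicate 1, 2 without morphine replicate 2 or saline replicate 3, 3 without morphine replicate 3 and 15 without saline replicate 2. The causes were not tested. With 3 libraries a group, the width of the intervals limits what can be said of the 4 arms.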
